A study of Homo sapiens with 68 samples.

Results

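TLC-CLIP sequences the RNA fragments that stay with an immunoprecipitated protein, and a peak is a stretch of RNA where those fragments pile up. The sites described here are peaks that were listed for 4 RNA-binding proteins at once. Each is a peak of hnRNPA1_50k_noPAGE replicate 1 that shares at least 1 nt, on the same strand, with a peak in replicate 2 and in both replicates of hnRNPc_50k_noPAGE, hnRNPI_50k_noPAGE and RBFOX2_50k_noPAGE. There were 1933 such sites among the 499537 peaks of the list they were taken from, and 15800601 peaks in the lists of the whole series. The sites were chosen by measured values, namely presence in these 8 lists, so what they show in those 8 libraries is a description and was not tested.

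The 4 proteins all bind nuclear RNA. hnRNPA1 binds pre-mRNA and often represses exons, hnRNP C binds uridine tracts of nascent transcripts, and hnRNPI, also known as PTBP1, binds pyrimidine tracts around regulated exons. RBFOX2 is a splicing regulator that recognises a short GCAUG element. In CLIP, ultraviolet light joins proteins to the RNA they touch, so that free RNA can be washed away. A library made without that step holds RNA that came down without a covalent bond to the protein. Gel excision of the labelled complex is a further step against such RNA.

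All libraries are from HEK293T cells, an established human embryonic kidney line, and each group has 2 replicates. The groups used by the rule were crosslinked, came from 50000 cells digested with 0.005 U of RNase, and skipped PAGE, the gel purification of the complexes. The other 60 libraries were not used by the rule. They comprise 36 crosslinked libraries, 16 without crosslinking (noUV) and 8 from gel regions.

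The crosslinked libraries compared below are the lowRNase groups, which were gel purified, and the noPAGE_RecJ groups, which skipped PAGE and received RecJ, an exonuclease. For each of the 4 proteins they were made from 50000 cells with 0.005 U of RNase. The noUV and noUV_noPAGE groups exist for each protein with the same cell number and RNase amount, with and without gel purification. The Background groups are gel regions of the hnRNP C pulldown from 10000 cells with 0.001 U of RNase, cut at 50-75, 75-100, 100-150 and 150-250 kDa. Further crosslinked groups were gel purified: mediumRNase groups of hnRNPA1 and hnRNPc, from 50000 cells with 0.025 U of RNase, and 10k and 1k groups of hnRNPc and RBFOX2. The 10k groups came from 10000 cells with 0.001 U, and the 1k groups from 1000 cells with 0.0001 U. The hnRNPc groups titled 5k and 500 skipped PAGE, with and without RecJ, at 0.005 U. Nothing in the labels says that replicates came from separate cultures, so p-values measure only the spread between these samples.

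The lists held between 303 and 523402 peaks, and the sequencing depth is unknown. One crosslinked library stood apart: hnRNPc_50k_lowRNase replicate 1 listed 3268 peaks where replicate 2 listed 214849. Values without it are given beside the comparisons that use it. A longer list can overlap more sites, and the lists give no RNA level, so more RNA of a gene and more binding per RNA molecule cannot be told apart.

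Few peaks came close to meeting the rule. Of the 499537 peaks, 169905 were in the source list alone and 193136 in 1 further list of the 8. There were 6384 in 6 lists and 2194 in 7. The single missing list was most often RBFOX2_50k_noPAGE replicate 1, with 372 peaks, and least often hnRNPA1_50k_noPAGE replicate 2, with 191. Peaks just outside the rule, in 7 of 8 lists, had a median of 34 reads in the source list, against 59 for the sites. Just inside it, 13 sites shared only 1 nt with their least overlapping list and 138 shared at most 5 nt, while 259 were covered over their full length in all lists.

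Some sites lie on top of each other. The lists place a peak within a gene, and the same interval can be entered under more than 1 gene identifier. The 1933 sites occupied 1808 distinct positions. Sites less than 30 nt apart on 1 strand joined into 1283 clusters, of which 978 held 1 distinct site and 234 carried several gene identifiers. Sites of 1 cluster can share reads and are not independent of each other.

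The sites were spread over many genes. They carried 1020 of the 15047 gene identifiers in the source list. Of these identifiers, 749 held 1 site after joining, 242 held 2 to 4, and 29 held 5 or more. The lists give Ensembl identifiers without symbols, and genes are therefore described here by position on hg19, the build in the submitters' processing notes, and by listed span. Listed span is the distance between the outermost peaks of an identifier over all 68 lists. It is a lower bound on the extent of the gene.

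By this measure the sites lay in shorter genes than other hnRNPA1 peaks. The comparison set throughout is the 262710 other peaks of the source list that replicate 2 overlapped, called other replicated hnRNPA1 peaks. The median listed span was 21907 nt for the sites and 104536 nt for those peaks. Identifiers spanning over 100000 nt held 15.5% of the sites and 51.8% of the other replicated peaks. At the other end, 193 sites (9.98%) lay in identifiers with a listed span of at most 300 nt, off the mitochondrial chromosome, against 0.0849% of the other replicated peaks. These are called short-gene sites here. A further 105 sites (5.43%) lay on the mitochondrial chromosome, against 0.0156% of the other replicated peaks.

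This gives 3 classes: 105 mitochondrial sites under 19 identifiers in 36 clusters, 193 short-gene sites under 133 identifiers in 127 clusters, and 1635 remaining sites under 868 identifiers in 1194 clusters. The class goes by the identifier of the entry, so the same cluster can count in more than 1 class. Most of the mitochondrial list is in the set, since the source list had 151 mitochondrial peaks in all. Chromosome 1 held the most sites, 213, followed by chromosome 7 with 190 and chromosome 17 with 173. Chromosome 17 gave 7.15 sites per 1000 peaks and chromosome 7 gave 6.23.

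Along the gene, the sites leaned towards the 3′ end. Among sites outside the mitochondria in identifiers spanning over 1000 nt, 20.2% (319 of 1576) had their centre in the tenth of the listed span nearest the 3′ end. The share was 8.93% for other replicated peaks. Near the 5′ end the shares were 14.97% and 14.56%. These are descriptions of where the peaks lie and were not tested.

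Sites were as wide as other peaks and held more reads. The median width was 76 nt (interquartile range 43 to 109) for the sites and 74 nt for other replicated peaks. The last number of each peak name is taken here as its read number, a meaning no label states. Its median in the source list was 59 for the sites (interquartile range 28 to 150), 15 for other replicated peaks and 11 for all peaks. A deposited p below 1e-05 was given to 92.5% of the sites and to 63.9% of the other replicated peaks.

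Read numbers agreed closely between replicates of 1 protein and loosely between proteins. Over the 1933 sites, Spearman's rho between the 2 replicates of a protein was 0.944 to 0.977 in the 8 libraries of the rule. Between libraries of different proteins it was 0.335 to 0.579 over 24 pairs. In the gel-purified lowRNase libraries, which the rule did not use, rho was 0.828 to 0.962 within proteins and 0.268 to 0.725 between them. Without hnRNPc_50k_lowRNase replicate 1 the values between proteins were 0.268 to 0.554. Each rho is over sites that share the 2 libraries, and sites of 1 cluster can share reads.

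To set proteins side by side without scaling, each site was given the percentile of its read number in each library's own list. The median percentile was 97.2 for hnRNPA1, 93.4 for hnRNPc, 89.1 for RBFOX2 and 83.6 for hnRNPI, as the mean of 2 replicates. hnRNPA1 gave the highest percentile at 855 sites, hnRNPc at 476, RBFOX2 at 389 and hnRNPI at 213. At 449 sites the percentile was 90 or more for all 4 proteins. The same site could therefore be near the top of 1 list and in the middle of another. A percentile depends on the list, and the sites are hnRNPA1 peaks by the rule. The hnRNPA1 lists held 499537 and 523402 peaks and those of RBFOX2 157375 and 161434. In read numbers of the highest peak over each site, the medians were 61 in both hnRNPA1 libraries and 56 and 58 in those of RBFOX2. They were 37 and 39 for hnRNPc and 36 and 32 for hnRNPI.

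The classes differed in which protein ranked highest. All 4 proteins had mitochondrial sites near the top of their lists, with median percentiles from 99.80 in RBFOX2 to 99.99 in hnRNPA1. Among the 193 short-gene sites, RBFOX2 gave the highest percentile at 126 and hnRNPA1 at 17. The median read number at these sites was 1314 and 1302 in the 2 RBFOX2 libraries, and 78 and 64 in those of hnRNPA1. Among the 1635 remaining sites hnRNPA1 was highest at 780 and RBFOX2 at 263.

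The sites took a large part of some lists and a small part of others. In the libraries of the rule, peaks at the sites were 0.392% to 1.68% of each list. They carried 26.7% and 27.3% of the summed read numbers in the 2 hnRNPA1 libraries and 48.7% and 50.1% in the 2 RBFOX2 libraries. The shares were 14.96% and 14.58% for hnRNPc and 5.97% and 4.82% for hnRNPI. In RBFOX2 short-gene sites alone held 33.1% and 34.5%, while in hnRNPA1 mitochondrial sites held 22.7% and 23.6%. These are shares of listed reads, in which a read over several peaks can count more than once.

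A pair of positions shows how far proteins differ at a shared site. The largest read numbers common to all 8 libraries lay on the mitochondrial chromosome at chrM:2200-2239 on the plus strand. This site had 105568 and 107832 reads in hnRNPA1, 37228 and 41989 in hnRNPc, 9279 and 8093 in hnRNPI, and 24424 and 26325 in RBFOX2. hnRNPA1 was highest and hnRNPI lowest, with no overlap between proteins.

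The next highest position, chr11:62609207-62609220 on the minus strand, lay in an identifier with a listed span of 189 nt. It had 163014 and 160867 reads in RBFOX2, 16822 and 12924 in hnRNPI, 14428 and 14551 in hnRNPc, and 8489 and 7332 in hnRNPA1. Here RBFOX2 was highest and hnRNPA1 lowest. The peak alone took 1.79% and 1.66% of the RBFOX2 listed reads, and 0.0740% and 0.0594% of those of hnRNPA1.

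A site at chr6:52860642-52860682 on the plus strand ran the other way. hnRNPA1 gave it 48069 and 52223 reads, and the other 6 libraries between 792 and 3807. The site at chr10:103124632-103124698 on the minus strand, in an identifier with a listed span of 111 nt, had 31815 and 30814 reads in RBFOX2 and 1157 to 4191 in the other 6. Outside the mitochondria and the short genes, chr22:38880327-38880462 on the minus strand was close to even, with 709 and 663 reads in hnRNPA1, 776 and 843 in hnRNPc, 1084 and 1034 in hnRNPI, and 737 and 433 in RBFOX2. Across the 1933 sites, 205 had at least 100 reads in all 8 libraries and 66 had at least 1000. The median of the smallest read number over the 8 libraries was 14.

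Nearly all sites were also listed without crosslinking. Of the 1933 sites, 1898 (98.2%) were overlapped in at least 1 of the 16 noUV libraries, against 43.4% of all peaks of the source list. All 16 libraries overlapped 366 sites (18.9%), against 0.0887% of all peaks. At the other end, 35 sites were in none. The number of noUV libraries per site is plotted beside that of other replicated hnRNPA1 peaks, which were in none of the 16 in 43.3% of cases.

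**Figure D1:**
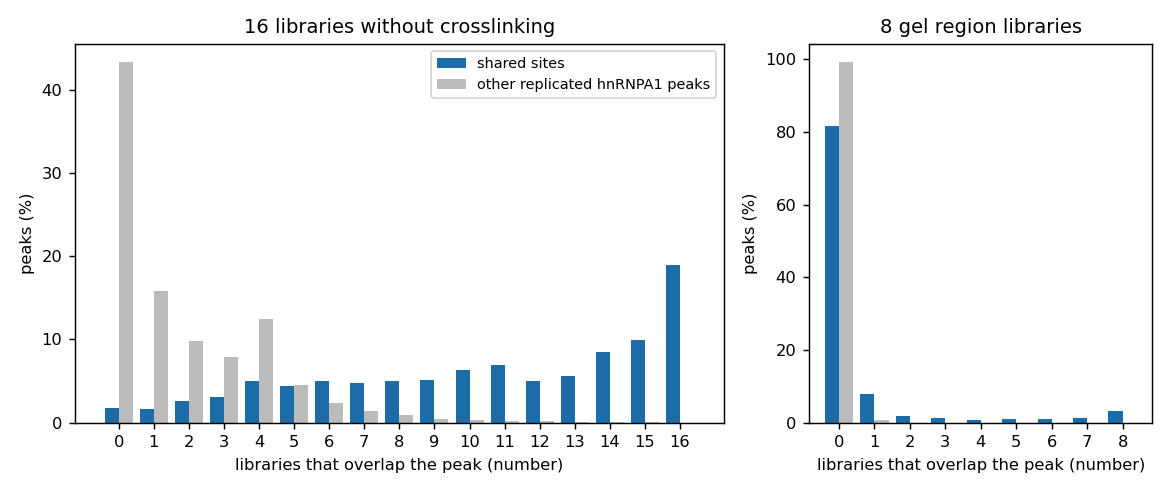
Percent of peaks (vertical axis) by the number of libraries that overlap the peak (horizontal axis), for the 1933 shared sites (blue) and 262710 other replicated hnRNPA1 peaks (grey), in the 16 libraries without crosslinking (left) and the 8 gel region libraries (right). The shared sites are most often in all 16 libraries without crosslinking (18.9%), while 43.3% of the other peaks are in none.

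Each noUV library overlapped a larger share of the sites than of other replicated peaks. The percent of sites overlapped ranged from 35.2% (noUV_hnRNPI replicate 1) to 83.0% (noUV_hnRNPc replicate 1), with a median of 69.5%. For other replicated hnRNPA1 peaks it ranged from 0.588% to 33.4%, with a median of 5.84%. The mean over libraries was 65.8% for the sites and 11.2% for the other peaks. The difference was 54.5 percentage points, with the same direction in 16 of 16 libraries. It is a description and no test, because the rule kept only peaks that hnRNPc, hnRNPI and RBFOX2 libraries also listed, and the other peaks failed that condition. In the 12 noUV libraries of these 3 proteins the mean difference was 58.6 points. In the 4 noUV libraries of hnRNPA1, the protein whose list holds both kinds of peak, it was 42.4 points, with 68.9% to 76.2% of the sites and 28.1% to 33.4% of the other peaks overlapped. The presence plot gives both shares for every library.

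**Figure D2:**
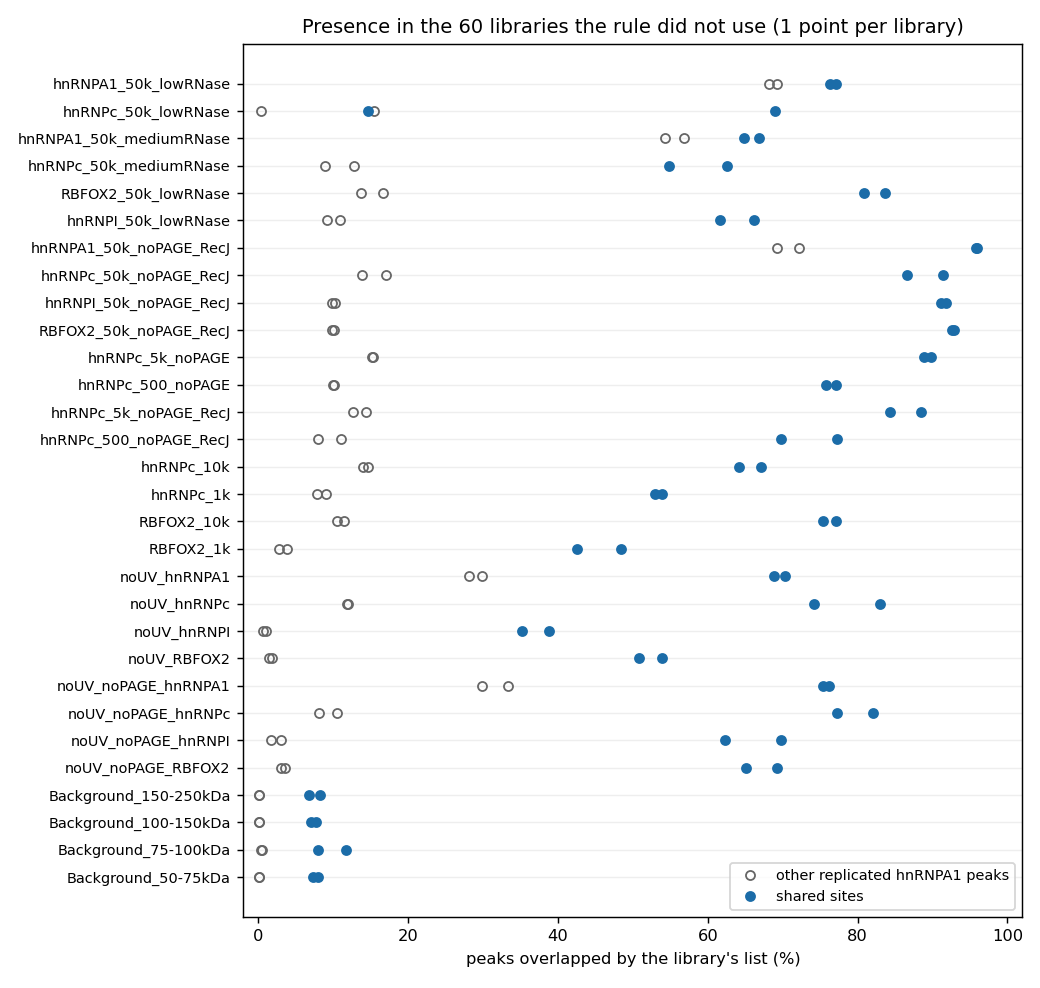
Percent of peaks overlapped by each of the 60 libraries the rule did not use (horizontal axis), by group (vertical axis), with 1 point per library for the shared sites (filled) and other replicated hnRNPA1 peaks (open). Filled points lie right of the open points of the same group, except in hnRNPc_50k_lowRNase, where replicate 1 listed 3268 peaks.

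The sites had more reads, and a peak with more reads was more often listed elsewhere, so the shares were also taken within classes of read number in the source list. Among peaks with 4 to 19 reads, the mean over the 16 noUV libraries was 50.8% for 291 sites and 7.42% for 166129 other replicated peaks. With 20 to 49 reads the shares were 58.2% and 15.5%, and with 50 to 199 reads 69.7% and 26.5%. With 200 or more reads they were 80.7% for 395 sites and 41.0% for 905 other peaks. In each of the 4 classes the sites were higher in 16 of 16 libraries. The classes were set after the data had been seen, and these shares are descriptions. Within each class the rule still sets the sites apart, as 12 of the 16 libraries are of hnRNPc, hnRNPI and RBFOX2. The top class is open, reaching 112786 reads for the sites and 29446 for the other peaks.

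**Figure D3:**
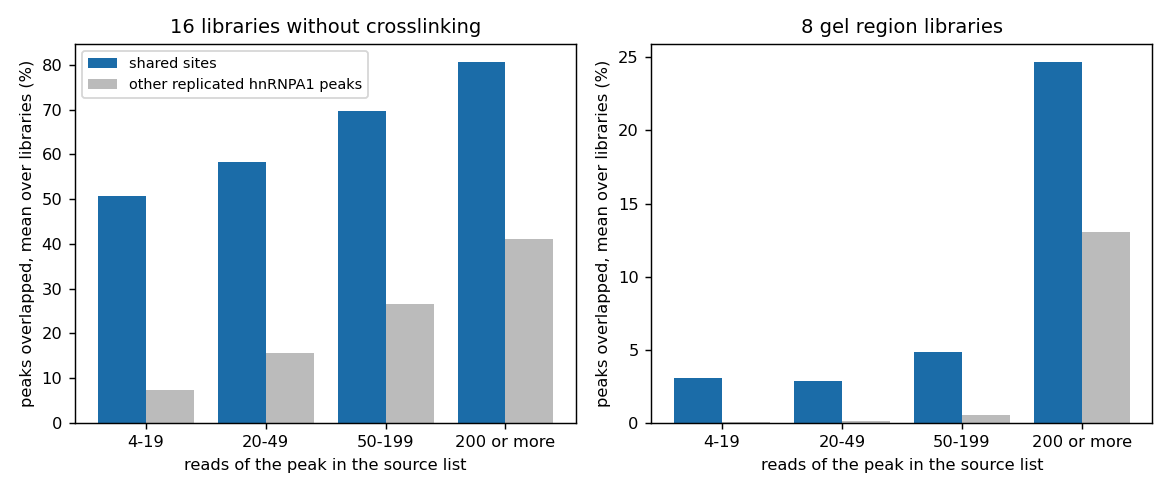
Mean percent of peaks overlapped (vertical axis) by class of read number in the source list (horizontal axis), over the 16 libraries without crosslinking (left) and the 8 gel region libraries (right); bars are means over libraries for shared sites (blue) and other replicated hnRNPA1 peaks (grey). Shared sites are higher in each class, from 50.8% against 7.42% at 4 to 19 reads to 80.7% against 41.0% at 200 or more reads in the left panel.

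Presence without crosslinking varied with the antibody and the gel. Each noUV group is given here as the number of sites overlapped in both replicates, beside the share of all source peaks called by the same rule. With gel purification, noUV_hnRNPc overlapped 1330 sites (68.8%, against 3.67% of all peaks) and noUV_hnRNPA1 overlapped 1241 (64.2%, against 13.3%). noUV_RBFOX2 overlapped 868 (44.9%, against 0.604%) and noUV_hnRNPI overlapped 533 (27.6%, against 0.219%). The 2 hnRNPI lists were also short, with 18690 and 36809 peaks, while those of hnRNPc held 299616 and 299307.

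Without PAGE the 4 proteins were closer to each other. noUV_noPAGE_hnRNPA1 overlapped 1375 sites (71.1%, against 15.6%) and noUV_noPAGE_hnRNPc overlapped 1360 (70.4%, against 3.07%). noUV_noPAGE_RBFOX2 overlapped 1179 (61.0%, against 1.58%) and noUV_noPAGE_hnRNPI overlapped 1128 (58.4%, against 1.02%). Both replicates of all 4 noUV_noPAGE groups held 779 sites (40.3%), and both replicates of all 4 noUV groups held 390 (20.2%). The shares of other replicated peaks were 0.281% and 0.0320%.

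Libraries without crosslinking were also compared with and without the gel over the 4 proteins. The rule used libraries without PAGE and so favours that kind, and these values are a description. The mean percent of sites overlapped was 72.2% in the noUV_noPAGE libraries and 59.4% in the noUV libraries. The share was higher without PAGE in 4 of 4 proteins, by 12.8 percentage points on average. List length differed as well. Lists held 44086 and 78945 peaks without PAGE against 18690 and 36809 with it for hnRNPI. For RBFOX2 they held 52842 and 61242 against 30170 and 22911, and for hnRNPA1 180477 and 196278 against 163669 and 146915. For hnRNPc they were shorter without PAGE, at 187729 and 278452 against 299616 and 299307. What the rule and list length add to the difference was not tested. The difference was 29.1 points for hnRNPI, 14.8 for RBFOX2, 6.21 for hnRNPA1 and 1.03 for hnRNPc. For hnRNPc the replicates of the groups overlapped, at 82.1% and 77.2% without PAGE and 83.0% and 74.2% with it.

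The rule asked for peaks in crosslinked libraries without PAGE, so it favours libraries of that kind when the presence of sites is compared. The next values are therefore a description. The crosslinked noPAGE_RecJ libraries overlapped 92.3% of the sites on average and the noUV_noPAGE libraries 72.2%. The difference of -20.1 percentage points was in the same direction in 4 of 4 proteins. The RecJ libraries differ from the noUV_noPAGE libraries by RecJ as well as by crosslinking, and the effects of these steps cannot be told apart here. Lists were also longer with crosslinking, at 160340 to 493269 peaks against 44086 to 278452.

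By protein, the RecJ libraries overlapped 95.8% and 96.0% of the sites for hnRNPA1, 92.9% and 92.6% for RBFOX2, 91.8% and 91.2% for hnRNPI, and 86.7% and 91.4% for hnRNPc. In both replicates together these were 1801 sites for hnRNPA1 (35.9% of all peaks under the same rule), 1712 for RBFOX2 (4.3% of all peaks), 1669 for hnRNPI (4.81%) and 1591 for hnRNPc (6.46%). These libraries are closest in protocol to those of the rule. Each protein's libraries without crosslinking lay below them without overlap.

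**Figure D4:**
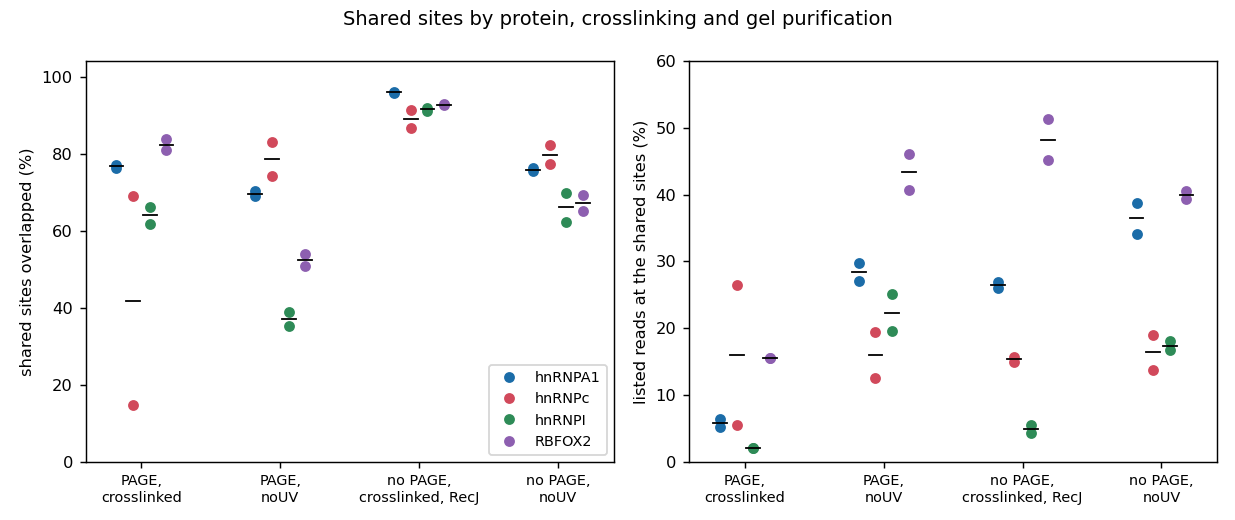
Percent of shared sites overlapped (left) and percent of listed reads at the shared sites (right) on the vertical axes, for the crosslinked and noUV libraries with and without PAGE; points are libraries coloured by protein, and black bars are means of 2 replicates. Without PAGE the noUV libraries overlap fewer sites than the crosslinked RecJ libraries for each protein, and with PAGE the noUV libraries of hnRNPA1, hnRNPI and RBFOX2 give a larger share of reads to the sites.

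With PAGE, the presence of sites was also compared between libraries with and without crosslinking. All libraries of the rule were crosslinked, so the rule favours that kind, and these values are a description. The mean percent of sites overlapped was 59.4% in the noUV libraries and 66.2% in the lowRNase libraries. The mean difference was -6.80 percentage points, and the share was lower without crosslinking in 3 of 4 proteins. The difference was -29.9 points for RBFOX2, -27.0 for hnRNPI and -7.14 for hnRNPA1. For hnRNPc it was 36.8 points, with 14.6% and 69.0% of sites in the crosslinked libraries and 83.0% and 74.2% without crosslinking.

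The short hnRNPc list decided this value. Without hnRNPc_50k_lowRNase replicate 1 the mean difference was -13.6 points, and that of hnRNPc was 9.67 points. In both replicates, the lowRNase libraries overlapped 1443 sites for RBFOX2 (6.43% of all peaks) and 1365 for hnRNPA1 (37.3% of all peaks). The numbers were 993 for hnRNPI (3.51% of all peaks) and 279 for hnRNPc (0.265% of all peaks).

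In the gel-purified lists the sites took a larger share of reads without crosslinking. They carried 27.5% of listed reads in the noUV libraries and 9.85% in the lowRNase libraries. The difference of 17.7 percentage points was higher without crosslinking in 3 of 4 proteins (exact two-sided permutation test, p = 0.00617, adjusted p = 0.0123). It was 11.4 points when mitochondrial sites were left out and 11.5 points over clusters. Without hnRNPc_50k_lowRNase replicate 1 it was 20.3 points. All libraries of the rule were crosslinked, which favours the lowRNase libraries, and this difference ran the other way.

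By protein, the share of listed reads was 40.7% and 46.0% in noUV_RBFOX2 against 15.5% in both crosslinked replicates. It was 27.1% and 29.8% in noUV_hnRNPA1 against 6.47% and 5.23%, and 25.1% and 19.5% in noUV_hnRNPI against 2.00% and 2.12%. For these 3 proteins the groups did not overlap. For hnRNPc the shares were 19.4% and 12.6% without crosslinking, and 26.5% and 5.46% with it, where the higher value is that of the short list. Lists without crosslinking were shorter for hnRNPA1, hnRNPI and RBFOX2, so that fewer other peaks shared the total; the part of list length in this difference was not tested.

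Without PAGE the read share differed less on average. The rule used crosslinked libraries without PAGE and so favours the RecJ libraries, and these values are a description. The share was 27.5% in the noUV_noPAGE libraries and 23.7% in the RecJ libraries, a difference of 3.79 points. It was higher without crosslinking in 3 of 4 proteins. Over clusters the difference was 6.40 points. The hnRNPI libraries went from 5.57% and 4.23% with crosslinking to 18.0% and 16.7% without, and the RBFOX2 libraries from 51.3% and 45.2% to 40.5% and 39.4%. Between the noUV_noPAGE and noUV libraries, where the rule favours the former, the mean share differed by 0.0079 points. The sign of this difference turned under several settings.

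Sites that recurred in all libraries without crosslinking had short listed spans. Among the 366 sites in all 16 noUV libraries, 117 were short-gene sites and 53 were mitochondrial, together 46.4%. The median listed span of their identifiers was 1434 nt. Among the 373 sites in 5 to 8 libraries the 2 classes made up 3.75% and the median span was 50284 nt. The 35 sites in none of the 16 libraries had a median span of 42692 nt, 6 of them were mitochondrial and none was a short-gene site.

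The median read number in the source list went with recurrence too. It was 30 for sites in none of the noUV libraries, 48 for sites in 5 to 8, 84 for those in 13 to 15 and 98 for those in all 16. Sites in all 16 libraries were narrower, with a median width of 47 nt against 97 nt for those in 5 to 8. Read number, width and listed span move together here, and their separate parts were not tested.

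**Figure D5:**
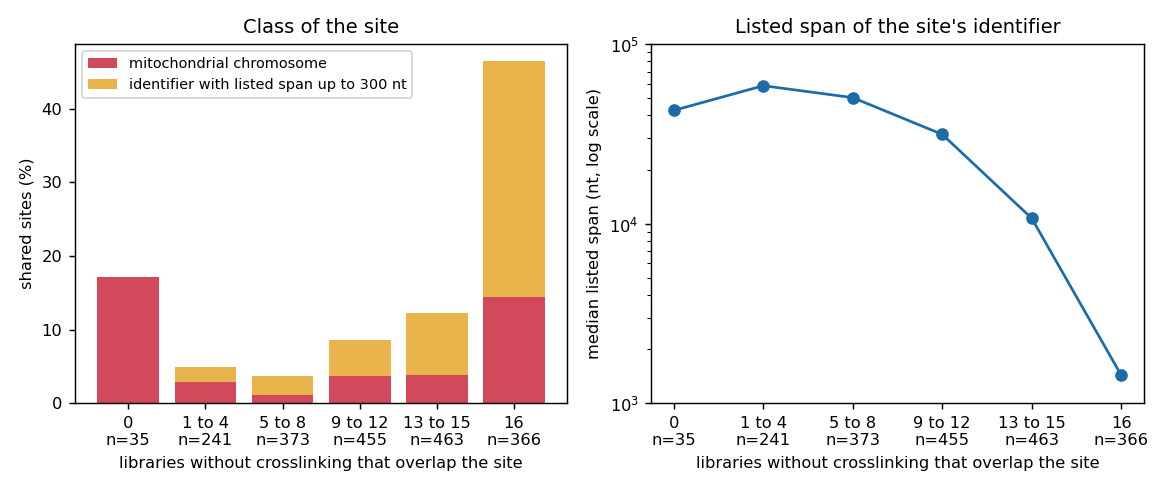
Left, percent of shared sites that are mitochondrial (red) or in identifiers with a listed span of at most 300 nt (yellow), and right, median listed span in nt on a log scale, both by the number of libraries without crosslinking that overlap the site (horizontal axis, with the number of sites). Of the 366 sites in all 16 libraries, 46.4% are in the red and yellow classes together, and the median span is 1434 nt.

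The remaining sites were still far more common than other peaks in libraries without crosslinking. Sites that were neither mitochondrial nor short-gene were overlapped at a median of 66.1% over the 16 libraries (26.9% to 82.4%). Short-gene sites had a median of 88.6% (80.3% to 96.9%) and mitochondrial sites 80.5% (71.4% to 84.8%). Other replicated hnRNPA1 peaks had a median of 5.84%. In the 4 noUV libraries of hnRNPA1 the remaining sites were at 66.3% to 74.0% and the other peaks at 28.1% to 33.4%. The remaining sites had the widest range between libraries. The classes go by the identifier of each entry, so a remaining site can lie over a short-gene site. This was so at chr1:45285623-45285671, which overlaps the short-gene site chr1:45285603-45285627 on the minus strand. Others have a span just over the limit, such as chr6:52860642-52860682 with 310 nt. Presence of the remaining sites away from such positions was not counted.

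Read numbers at single sites without crosslinking also differed between antibodies. At chrM:2200-2239 the 4 noUV libraries of hnRNPA1 had 19538 to 84016 reads and the 4 of hnRNPI 1334 to 7369. At chr6:52860642-52860682, where hnRNPA1 was highest with crosslinking, the noUV_hnRNPA1 libraries had 30790 and 27741 reads and the noUV_noPAGE_hnRNPA1 libraries 19209 and 23290, against 374 to 2062 in the other 12 noUV libraries. At chr11:62609207-62609220, noUV_noPAGE_RBFOX2 had 24666 and 40720 reads and noUV_hnRNPA1 had 623 and 505. At chr10:103124632-103124698 the highest noUV values were those of noUV_noPAGE_hnRNPI, at 3099 and 3686 reads, while noUV_noPAGE_RBFOX2 had 1060 and 1248. At this last site RBFOX2 was highest in the libraries of the rule and hnRNPI in the noUV_noPAGE libraries, as read numbers that are unscaled between libraries. With PAGE these proteins overlapped, at 605 and 883 reads in noUV_hnRNPI and 783 and 652 in noUV_RBFOX2.

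Among the sites in no noUV library, 6 were mitochondrial and lay side by side under 1 identifier, over the 61 nt of chrM:2068-2128 on the plus strand. This stretch ends 71 nt before the site at chrM:2200-2239, the highest of all. In the first hnRNPA1 replicate the 6 sites had 38282 to 51679 reads. At chrM:2080-2088, hnRNPA1 gave 47605 and 51694 reads and hnRNPI 4032 and 3516. None of the 16 noUV libraries listed a peak over the 61 nt. Each of the 6 sites was in 16 to 20 of the 36 other crosslinked libraries, and 1 of them was in 2 gel region libraries. At chrM:2080-2088 these were the 16 crosslinked libraries that skipped PAGE. No gel-purified crosslinked library of the lowRNase, mediumRNase, 10k or 1k groups listed a peak there. The noUV_noPAGE libraries also skipped PAGE and did not list it. Of the sites in no noUV library under the next identifier by smallest read number, the first, chr17:62497680-62497729 on the minus strand, had 69 and 100 reads in hnRNPA1, 130 and 152 in hnRNPc, 98 and 68 in hnRNPI, and 108 and 121 in RBFOX2. It was listed in 33 of the 36 crosslinked libraries. These sites were chosen after their values were seen. Absence means only that no peak was listed there.

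Gel regions away from the hnRNP C band held a small part of the sites. At least 1 of the 8 gel region libraries overlapped 354 sites (18.3%), against 0.612% of all source peaks. All 8 overlapped 61 sites (3.16%), against 0.0154%. The remaining 1579 sites were in none. The 8 libraries overlapped 6.78% to 11.7% of the sites and 0.0346% to 0.420% of other replicated hnRNPA1 peaks. The mean difference was 7.93 percentage points, with the same direction in 8 of 8 libraries, and 5.15 points over clusters. These libraries come from the hnRNP C pulldown, and the rule used hnRNPc lists, so this too is a description and no test.

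The 4 gel regions overlapped nearly the same number of sites. In both replicates these were 108 sites at 150-250 kDa (0.0292% of all peaks), 107 at 100-150 kDa (0.0326% of all peaks), 110 at 75-100 kDa (0.0492% of all peaks) and 111 at 50-75 kDa (0.0426% of all peaks). The lists themselves were very unequal, with 6716 and 4875 peaks at 75-100 kDa and 303 to 1802 in the other 3 regions. The sites carried 2.41% and 1.16% of listed reads at 75-100 kDa and 22.2% to 43.7% in the other 6 libraries. For comparison, the gel-purified hnRNPc_10k libraries, from the same number of cells, overlapped 67.2% and 64.2% of the sites and 10.7% and 10.2% of all source peaks, and the sites held 7.58% and 7.003% of their listed reads.

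The sites found in gel regions had more reads in the source list. The median read number in the source list was 179 for sites in at least 1 gel region library and 51 for sites in none. For the 61 sites in all 8 it was 8439, and 51 of these were also in all 16 noUV libraries. These 61 sites formed 19 clusters. The mitochondrial class made up 31 of the 61, short-gene sites 13 and the remaining class 17. Within read classes the sites were above other replicated peaks in 8 of 8 libraries in each class. The mean shares ran from 3.09% against 0.0388% at 4 to 19 reads to 24.7% against 13.1% at 200 or more. The rule used hnRNPc lists, so these shares are descriptions as well.

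Read numbers in the gel regions were low. At chrM:2200-2239 they ranged from 121 to 233 over the 8 libraries with a median of 198. At chr11:62609207-62609220 they ranged from 34 to 195 with a median of 83.5. The site at chr6:52860642-52860682 had 62 to 199 reads, so the 3 positions overlapped in range here while they differed widely in the hnRNPA1 and RBFOX2 libraries. The site at chr10:103124632-103124698 was listed only at 75-100 kDa, with 78 and 67 reads, and in replicate 1 at 50-75 kDa, with 43.

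A few sites were listed everywhere. All 60 libraries outside the rule overlapped 29 sites in 7 clusters, against 0.00581% of all source peaks, and none of the other replicated hnRNPA1 peaks. Of these 29, 18 were mitochondrial, 7 were short-gene sites and 4 were of the remaining class. One is chr3:180949534-180949584 on the plus strand, in an identifier with a listed span of 793871 nt. It had 26149 and 22157 reads in RBFOX2_50k_noPAGE and 1303 to 3120 in the other 6 libraries of the rule. Without crosslinking it had 122 to 8807 reads and in the gel regions 6 to 39.

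Presence in every control library did not need high read numbers in the libraries of the rule. chr12:20704354-20704425 on the plus strand was in all 16 noUV and all 8 gel region libraries. It had 59 and 85 reads in hnRNPA1, 76 in both hnRNPc libraries, 180 and 162 in hnRNPI, and 280 and 359 in RBFOX2. Its noUV libraries had 149 to 1057 reads with a median of 464.5, above each value in the libraries of the rule. chr2:27273641-27273716 on the plus strand, with 33 to 184 reads in the libraries of the rule, had 39 to 427 in the noUV libraries. Read numbers are unscaled between libraries, and no test was made of single sites.

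Genes with many sites formed a few blocks. The identifier with most joined sites, ENSG00000228049.4, held 22 between chr7:102178370-102305815 on the minus strand, which were 45.8% of its 48 peaks in the source list. Other identifiers within the same stretch held 12, 11 and 9 joined sites, in part at the same positions. The sites of this stretch had few reads, 5 to 90 with a median of 21, and each was in at least 6 of the 16 noUV libraries, while the median number of gel region libraries was 0. A second block of 10 joined sites, chr7:76181485-76228450 on the plus strand, was entered under a pair of identifiers. Its median was 32 reads, and its median number of noUV libraries was 5.

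Other identifiers with many sites differed widely in span and read number. One with sites over chr11:65267103-65273420 on the plus strand had 7 joined sites with 641 to 9947 reads, a median of 13 noUV libraries and a median of 3 gel region libraries. Sites over chr7:26231607-26236218 on the minus strand made up 8 joined sites and 42.9% of the peaks of their identifier, each in at least 13 noUV libraries. By contrast, sites over chr4:20271361-20378540 on the plus strand were 14 of the 526 peaks of their identifier, or 2.66%. Whether repeated sequence or shared reads contribute to such blocks was not tested.

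Some libraries titled with fewer cells overlapped fewer of the sites, and fewer of all source peaks. In crosslinked hnRNPc libraries without PAGE, 89.8% and 88.9% of the sites were overlapped in those titled 5k and 75.7% and 77.1% in those titled 500. Of all source peaks, the first pair overlapped 12.9% each and the second 8.47% and 8.36%. With PAGE, hnRNPc_10k gave 67.2% and 64.2% and hnRNPc_1k gave 52.9% and 53.9%, beside 10.7% and 10.2%, and 5.98% and 6.93%, of all source peaks. RBFOX2_10k gave 75.3% and 77.1% and RBFOX2_1k 42.5% and 48.4%, beside 7.81% and 8.63%, and 2.18% and 2.97%, of all source peaks. The groups of each of these 3 pairs do not overlap. Nor do hnRNPc_500_noPAGE_RecJ, at 69.8% and 77.2% of the sites, and hnRNPc_5k_noPAGE_RecJ, at 84.4% and 88.5%. These overlapped 6.64% and 9.26%, and 10.7% and 12.3%, of all source peaks. RBFOX2_50k_lowRNase, at 83.7% and 80.9% of the sites, lay above RBFOX2_10k. By contrast, hnRNPc_5k_noPAGE_RecJ overlaps with hnRNPc_50k_noPAGE_RecJ, at 86.7% and 91.4%. The hnRNPc_10k values lie between those of hnRNPc_50k_lowRNase, 14.6% and 69.0%. The RNase amount was lowered with cell number in the 10k and 1k libraries. For the titles with 5k and 500 the cell number label nevertheless reads 50000. No test of cell number was planned, and none was run.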

How the data were processed

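Per the submitters' processing notes, reads were handled with bcl2fastq, UMI-tools 1.0.1 and STAR 2.7.3a on hg19, with parameters not given there. The authors deposited 1 peak list per library, called separately, with position, strand, a p-value for each peak and a name that holds a gene identifier and a last number, read here as reads over the peak. That number is unscaled, and the depth is unknown.

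The members and lists were chosen with earlier results of these data known. Overlap was counted from 1 nt on the same strand with Python 3.11.15, numpy 2.4.6 and pandas 2.3.3. Groups were compared in 6 exact two-sided permutation tests: the groups' means were subtracted within each protein and averaged over proteins, over all 1296 relabellings within proteins. A further 2 compared sites with other replicated hnRNPA1 peaks, with signs turned within libraries (65536 and 256 arrangements). Benjamini-Hochberg adjustment ran over all 8, including those given as descriptions, so the adjusted p-value printed depends on them. The rule's choice of libraries leans on these 2, on the presence comparisons and on the read share comparisons that involve noUV_noPAGE libraries. All of those are given as descriptions without their p-values. Read share with PAGE is the comparison given as a test. Functions were tested on simulated data. Listed reads at the sites are the read numbers of all peaks that overlap a site, over the sum of the list.

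Named sites were those with the largest smallest read number over the 8 libraries of the rule and those in the most noUV and gel region libraries, 1 per gene identifier. Named blocks were among the 15 identifiers with most joined sites. The positions chr22:38880327-38880462, chr17:62497680-62497729 and chrM:2080-2088, the 300 nt span, the read classes and the count over distinct positions were chosen after values were seen. Gene symbols, the gene lists and site sequences that had been planned were not used here, as no hg19 genome or table of these identifiers was at hand: 0 identifiers were matched. Alternatives were at least 50% of a site covered, p below 1e-05, clusters, no mitochondrial sites, each library left out, the replicate number as a block and distinct positions.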

Additional observations from a re-analysis of the deposited data

Results flagged for a closer look

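The differences given here stand out because every library of 1 protein moved one way and every library of another the opposite way; they were not tested. In the presence of sites with gel purification, noUV minus lowRNase was 36.8 points for hnRNPc. It differed by 43.97 points from hnRNPA1 (-7.14), by 63.8 from hnRNPI (-27.0) and by 66.8 from RBFOX2 (-29.9). These 3 values rest on the short hnRNPc_50k_lowRNase replicate 1: without it the value for hnRNPc was 9.67 points.

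In the share of listed reads without PAGE, noUV_noPAGE minus noPAGE_RecJ was -8.31 points for RBFOX2. It differed by 18.3 points from hnRNPA1 (9.95) and by 20.8 from hnRNPI (12.5).

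In the same share without crosslinking, noUV_noPAGE minus noUV was 8.02 points for hnRNPA1. It differed by 12.9 points from hnRNPI (-4.91) and by 11.5 from RBFOX2 (-3.47). The mean over proteins of 0.0079 points averages over these opposite directions.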

How the results depend on the processing

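The number of sites was 1120 with at least 50% of the peak covered and 1170 with p below 1e-05. Leaving out 1 library of the rule gave 2061 to 2305, and clusters, RBFOX2 peaks as the source and distinct positions gave at most 2272. The difference in read share between noUV_noPAGE and noUV libraries, 0.0079 points, turned to -4.25 with p below 1e-05, -0.904 over clusters, -2.12 without mitochondrial sites and -0.216 over distinct positions; without 1 library it ran from -0.849 to 0.865. The read share difference without PAGE was 6.40 points over clusters. The presence difference with PAGE was -13.6 points without hnRNPc_50k_lowRNase replicate 1, -0.0065 without its replicate 2, and within that range over all libraries left out. The other 5 comparisons kept their direction in each alternative run, with mean differences of -21.6 to -19.2, 11.7 to 13.9, 11.4 to 22.0, 48.8 to 55.9 and 5.15 to 8.26 points. Of these, the 1 given as a test, read share with PAGE, kept its side of the threshold in each run.

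Deviations of libraries with the same replicate number correlated between -0.0519 and 0.0738 at the sites, apart from 0.406 for hnRNPc without crosslinking. There, mitochondrial sites held 16.1% and 14.7% of listed reads in the replicate 1 libraries of noUV_hnRNPc and noUV_noPAGE_hnRNPc. In the replicate 2 libraries they held 7.68% and 8.42%. Replicate numbers may therefore pair these hnRNPc libraries, and the main comparisons did not use such a pairing. With the replicate number as a block, the exact permutation p-value was 0.0234 for read share with PAGE (17.7 points). Peak numbers differ between libraries and depth is unknown, so an absent peak is no measured absence.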
